A study of Drosophila melanogaster with 3 samples.

Results

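The 260 microRNA genes annotated on the 6 nuclear arms of Drosophila melanogaster (2L, 2R, 3L, 3R, 4 and X) were examined in a map of open chromatin from the pupal abdominal epidermis. They were all genes of biotype miRNA in the RefSeq table of the dm6 assembly that lie on these arms, out of 17684 annotated genes of every kind there. Another 2 copies of mir-10404, which the table places on both X and Y, were left out. A gene was called hosted where its whole interval lay inside the span of a protein-coding gene, which held for 166 genes, and outside for the other 94. The annotated gene is the hairpin precursor, with a median length of 92 bp, so its position is that of the hairpin and not of the promoter of the longer primary transcript. The table gives no strand, transcription start, exon or intron.

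The cells were profiled by ATAC-seq, a method that marks accessible DNA by letting a transposase cut it and add adapters. All samples were of 1 group, wild-type (WT) pupae at 38 to 45 h after puparium formation, with abdominal cuticles of 50 pupae pooled in each of 3 replicates and only the epidermal cells kept on the cuticle. The labels give no strain, sex or treatment. The values came as 1 merged list of 34718 peaks, so no value below has a replicate error and no test was made. In bulk tissue, a site open in few cells and a site weakly open in many cannot be told apart. At the ends of epidermal marker genes, peaks of 3.37-fold and 3.54-fold stood at knk and serp, which organise and modify chitin, and one of 1.66-fold at the chitin synthase gene kkv. Of the markers of other tissues, the muscle genes Act88F and Mp20, the neuronal gene nSyb and the germline gene bam had no summit within 500 bp of an end. The muscle gene sns (2.92-fold), the neuronal genes elav (2.46-fold) and Syt1 (1.65-fold) and the germline gene vas (1.81-fold) had one.

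MicroRNAs are short RNAs that bind messenger RNAs through a seed near their 5' end and lower their translation and stability. Most are cut from a hairpin within a primary transcript of RNA polymerase II, which may be a non-coding gene of its own or an intron of a protein-coding gene. In the second case the microRNA often shares the promoter of its host. In flies they act in tissue growth, cell survival, sense organ number and the timing of metamorphosis.

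Open chromatin was found close to 73 of the 260 microRNA hairpins, or 28.1%, counted as genes with a peak summit within 500 bp. By the same measure 66.3% of all annotated genes and 71.5% of protein-coding genes had one, but their spans are longer, with a median of 2163 bp for protein-coding genes. Sequence itself gives a nearer comparison. A gene of 92 bp placed at each position of the arms in turn would have a summit within 500 bp at 24.2% of positions. Among other short RNA genes, 71.4% of 290 tRNA genes (median length 73 bp) and 22.7% of 269 snoRNA genes (median length 134 bp) had one. The microRNA hairpins were therefore close to the share of all positions and to snoRNA genes, which often lie in introns, and far below tRNA genes, whose promoters lie inside the gene.

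**Figure D1:**
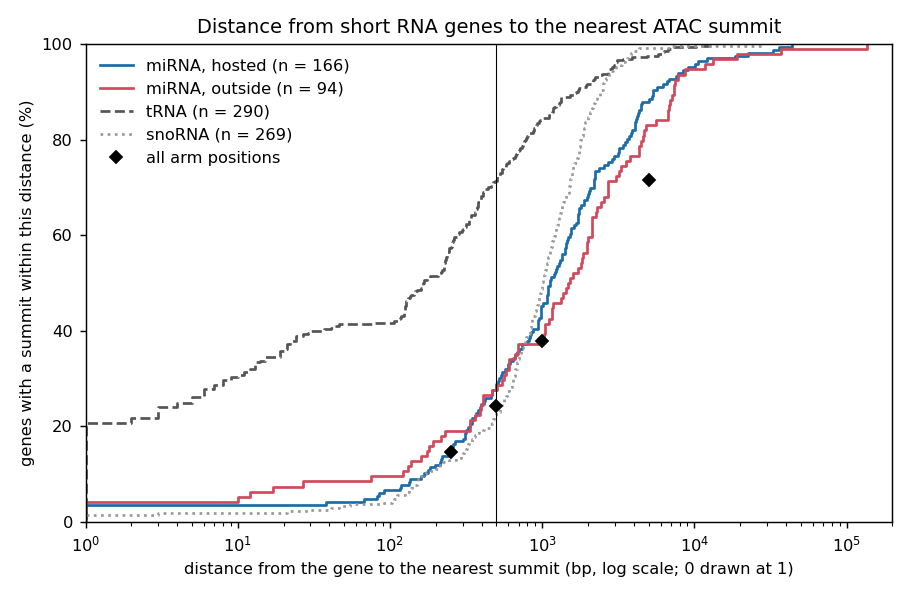
Share of genes (y axis, percent) with an ATAC summit within a given distance (x axis, bp, log scale) for hosted and outside microRNA genes, tRNA genes and snoRNA genes, with diamonds for all positions of the arms. The vertical line marks 500 bp, where both microRNA curves stand near 28% and the tRNA curve at 71.4%.

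The shares of hosted and outside genes at this distance were close, but their order depended on how genes were counted. A summit lay within 500 bp of 47 of 166 hosted genes, or 28.3% (95% exact Clopper-Pearson interval 21.6% to 35.8%), and of 26 of 94 outside genes, or 27.7% (18.9% to 37.8%). These intervals cover counting error only and treat neighbouring genes as independent, although 6 genes share their highest peak with another. Among tRNA genes 68.7% of hosted and 73.7% of outside genes had one, and among snoRNA genes 17.4% of hosted and 42.9% of outside genes. Of positions inside protein-coding spans 25.3% had a summit within 500 bp, and of positions outside them 22.0%. With a window of 250 bp the order of the classes turned, to 14.5% of hosted and 19.1% of outside genes, and with 1000 bp it was 45.2% and 38.3%. Genes were also counted as loci, with neighbours of 1 class within 10 kb joined. Then 45 of 142 hosted loci (31.7%) and 23 of 58 outside loci (39.7%) had a summit within 500 bp of any member. This is unlike the count per gene, since a locus of several hairpins covers more sequence. The genes nearest to the limit on either side were mir-1016 at 494 bp, mir-963 at 501 bp and mir-13b-1 at 502 bp.

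Within 5 kb most microRNA genes had a summit, 224 of 260 (86.2%). The count was 146 of 166 hosted genes (88.0%) and 78 of 94 outside genes (83.0%). Over all annotated genes the share was 90.7%, and over all positions 71.6%. It was 77.6% of positions inside protein-coding spans and 59.6% of those outside them. For tRNA genes it was 97.6% and for snoRNA genes 99.3%. The median distance to the nearest summit was 1131 bp for hosted genes (interquartile range 417 to 2665 bp) and 1499 bp for outside genes (409 to 3503 bp). The summit lay inside the hairpin itself in 10 genes, or 3.85%. An interval of 92 bp would hold a summit at 2.39% of positions, and 1.49% of snoRNA genes and 18.6% of tRNA genes held one. Among the 10 genes were mir-2281 inside cv-c, a RhoGAP gene (2.45-fold), mir-9377 inside Tis11, which encodes an mRNA decay factor (2.36-fold), mir-2282 inside sty, an inhibitor of receptor tyrosine kinase signalling (1.53-fold), and mir-4941 inside the Wnt inhibitor gene Notum (1.76-fold). The neighbours mir-314 and mir-956 each held a summit, of 1.80-fold in both.

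For 36 genes the nearest summit was more than 5 kb away, and 19 of them were among the 58 genes on X. The share of X positions within 5 kb of a summit was not computed. These 19 are not independent cases. They include the 3 genes of mir-283 to mir-12, the 2 of mir-969 to mir-210 and some of mir-972 to mir-979, all of them neighbours in clusters. Among hosted genes the farthest was mir-2280 inside c-cup, 43522 bp from a summit, followed by mir-289 inside bru3, an RNA-binding protein gene, at 36187 bp and mir-284 inside the octopamine receptor gene Octbeta2R at 32665 bp. Among outside genes the farthest were mir-10404-5 at 135285 bp, mir-10404-4 at 36905 bp and mir-219 at 19109 bp. The mir-10404 hairpins lie in ribosomal DNA repeats, where reads cannot be placed on 1 copy, and how such reads were handled is not given in the sources used here.

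Closeness to the ends of protein-coding genes went with a higher share in both classes. Of 56 hosted genes within 1000 bp of such an end, 20 had a summit within 500 bp (35.7%), and of 110 farther away 27 had one (24.5%). Of 40 outside genes within 1000 bp the count was 16 (40.0%), and of 54 farther away it was 10 (18.5%). Of the 70 distinct highest peaks near microRNA genes, 26 (37.1%) had their summit within 500 bp of a protein-coding end, 17 at hosted and 9 at outside genes. Of all 34718 peaks 9512 (27.4%) had.

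The peaks near microRNA genes had a median fold enrichment of 2.24, which is the read pileup at the summit over the peak caller's local background, as the authors' list gives it. The median was 2.26 for the 46 peaks of hosted genes (range 1.44 to 3.28) and 2.06 for the 24 peaks of outside genes (range 1.495 to 3.73), against 2.01 for all 34718 peaks. Peaks at protein-coding ends stood higher in both classes. Their medians were 2.61 for the 17 of hosted genes and 2.85 for the 9 of outside genes, against 2.28 for all peaks at such ends. Away from protein-coding ends the medians were 1.91 for 29 peaks of hosted genes and 1.80 for 15 of outside genes, against 1.93 for all such peaks.

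The 6 highest peaks at outside genes were led by one at mir-954 on chromosome 4 (hairpin chr4:626126-626212, peak chr4:625194-626614, 3.73-fold, summit 12 bp from the hairpin). At that summit 216 reads overlapped (95% Poisson interval 188 to 247, counting error only). It was followed by mir-4942 (chr3L:23339146-23339974, 3.40-fold), mir-193 (chr3L:21574404-21575058, 3.26-fold), mir-303 (chrX:4366072-4366932, 3.06-fold), mir-11182 (chr2R:18179246-18180349, 2.85-fold) and mir-285 (chr3L:11946187-11946806, 2.70-fold). The first 5 of these 6 summits lay within 500 bp of a protein-coding end, so they are at or near the ends of neighbouring coding genes as well. The summit at mir-285 did not, and the nearest protein-coding end was 1241 bp from the hairpin.

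Among hosted genes the highest peak was at mir-3645 inside Mlc-c, a non-muscle myosin light chain gene (hairpin chrX:5622280-5622416, peak chrX:5621067-5622738, 3.28-fold, 204 overlapping reads, 95% Poisson interval 177 to 234). The next were at mir-4985 inside Fatp3 (3.09-fold), mir-4909 inside CG1941 (2.87-fold), mir-4975 inside CG45092 and chk (2.85-fold), mir-9370 inside Amun (2.73-fold) and mir-4980 inside CanB2, a calcineurin B gene (2.71-fold). All of these except mir-4975 had the summit within 500 bp of a protein-coding end. The hairpin of mir-4975 was 7468 bp from the nearest such end.

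A summit near an end was common among the genes that contain the hairpins. This measure is unlike that of the hairpins, since it searches around both ends of a gene and counts each host once. The 166 hosted genes lay in 148 protein-coding hosts, of which 121 (81.8%) had a summit within 500 bp of either end, against 65.6% of all protein-coding genes. Hosts are long, with a median span of 14201 bp. Of the 1431 protein-coding genes of at least that span, the longer hosts included, 77.9% had such a summit. Among the 74 hosts of at least the median span 61 had one, and among the 74 shorter hosts 60 (81.1%), against 64.1% of the 12491 protein-coding genes shorter than the median host. The median of the highest end peaks of hosts was 2.59-fold. The highest, 4.45-fold, was at tup, a LIM-homeodomain factor gene that holds mir-4946. It was followed by 3.76-fold at the perlecan gene trol, which holds mir-4955.

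Where the host had no end summit, its microRNA genes rarely had one nearby. Over all positions inside protein-coding spans, the share with a summit within 500 bp was 25.3%. That share was not split by whether the gene had an end summit, so whether the contrast is particular to microRNA genes is unknown. Of 131 hosted genes whose host had an end summit, 46 had a summit within 500 bp of the hairpin (35.1%). Of 35 whose host had none, the count was 1 (2.86%), namely mir-964 inside DIP-theta, which encodes an immunoglobulin-family protein of neurons. Without genes within 1000 bp of a protein-coding end the counts were 26 of 86 (30.2%) and 1 of 24 (4.17%). When peaks that are themselves an end peak of the host were not counted, the first count fell to 32 of 131 (24.4%). The count of 1 of 35 could not change, since those hosts have no end peak to leave out. The hosts without an end summit included the homeobox gene hth (mir-4944), the EGF receptor ligand gene spi (mir-2a-1, mir-2a-2 and mir-2b-2), the sex determination gene Sxl (mir-4956) and the neuronal genes Nlg2 (mir-932) and nAChRalpha2 (mir-1017). The span of hth still held 50 summits and that of spi 8, while that of nAChRalpha2 held 0. The 6 genes mir-959 to mir-964 share 1 host and are not 6 independent cases. The same applies to the 3 genes inside spi, the 2 inside TM9SF4 and the pair mir-iab-4 and mir-iab-8, whose hosts also had no end summit.

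Of the 94 outside genes, 43 lay inside an annotated non-coding gene, and the other 51 lay inside no other gene, although 2 of them, mir-11182 and mir-4942, overlap a protein-coding gene in part. A summit stood within 500 bp of the hairpin in 11 of the 43 (25.6%) and 15 of the 51 (29.4%). The 43 genes lay in 31 non-coding hosts, 28 of them lncRNA genes and the rest antisense RNA genes. Of these hosts 26 (83.9%) had a summit within 500 bp of an end, against 47.0% of all 1959 lncRNA genes. For lncRNA genes at least as long as the median host, 7418 bp, the share was 58.5% of 65, and these include hosts. When hosts with a hairpin within 1000 bp of their own end were left out, all 12 that remained had an end summit. Of the 32 outside genes whose non-coding host had an end summit, 21 had no summit within 500 bp of the hairpin.

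**Figure D2:**
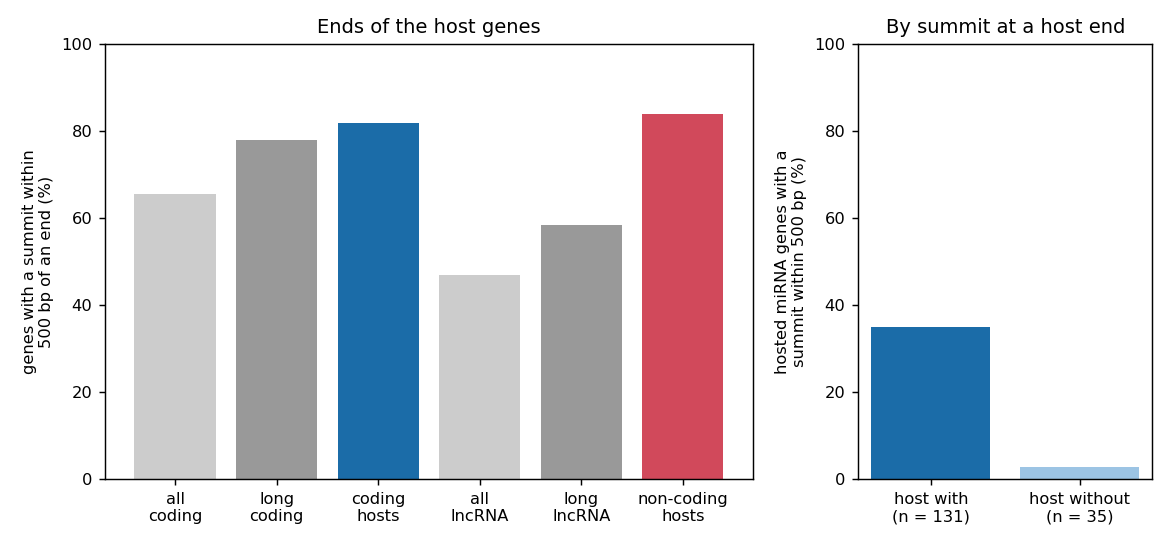
Left, share of genes (percent) with a summit within 500 bp of either end, for all protein-coding and lncRNA genes, those at least as long as the median host, and the hosts of microRNA genes (81.8% of 148 coding and 83.9% of 31 non-coding). Right, share of hosted microRNA genes with a summit within 500 bp of the hairpin, by whether the host has an end summit (35.1% and 2.86%).

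Several of these non-coding hosts carry microRNAs with known roles in epithelia. The lncRNA gene around mir-ban, the hairpin of bantam, which promotes growth and blocks cell death, spanned 15466 bp with 12 summits, and a peak of 2.34-fold stood within 500 bp of its lower-coordinate end. The hairpin had a summit of 1.495-fold only 17 bp away (chr3L:642093-642416). The lncRNA gene around mir-8, a regulator of Wnt signalling and body growth, spanned 10400 bp with 9 summits in its span, and a peak of 2.62-fold stood within 500 bp of its lower-coordinate end. The summit nearest to the mir-8 hairpin was 409 bp away at 1.58-fold. For both genes the peak at one end of the host stood above the one at the hairpin. The same held for mir-bft (2.39-fold and 1.39-fold) and mir-9a (1.89-fold and 1.52-fold). It did not hold for mir-279 and mir-996. Their shared host had an end peak of 1.44-fold, below the peaks nearest to the hairpins (1.72-fold and 2.02-fold). The hairpin of mir-14, which suppresses cell death, had summits 229 and 359 bp away at 1.68-fold and 1.48-fold. The nearer of these was also an end peak of its lncRNA host.

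Of the 11 microRNA genes in the list of epithelial growth, survival, bristle and trichome regulators, 5 had a summit within 500 bp, against 28.1% of all microRNA genes, and all 11 had one within 5 kb. The others with a close summit were mir-92a, which suppresses trichomes on the leg (328 bp, 1.78-fold), and mir-279, which limits the number of carbon dioxide-sensing neurons (468 bp, 1.72-fold). Those without were mir-11 (545 bp, 1.89-fold), a repressor of cell death genes inside the cell cycle gene E2f1, and mir-9a (953 bp, 1.52-fold), which restrains sense organ precursors. The bristle survival gene mir-263b was 976 bp from a summit of 1.98-fold, and its relative mir-bft (mir-263a) 1379 bp from one of 1.39-fold. The summit nearest to mir-7, which acts in photoreceptor determination, was at 1413 bp and 1.42-fold, and that of mir-996 at 1800 bp and 2.02-fold. Fold enrichments in this list were modest, between 1.39 and 2.02 at the nearest peak. No member had a close summit among the 17359 peaks of highest −log10 q, against 41 of all 260 microRNA genes (15.8%).

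**Figure D3:**
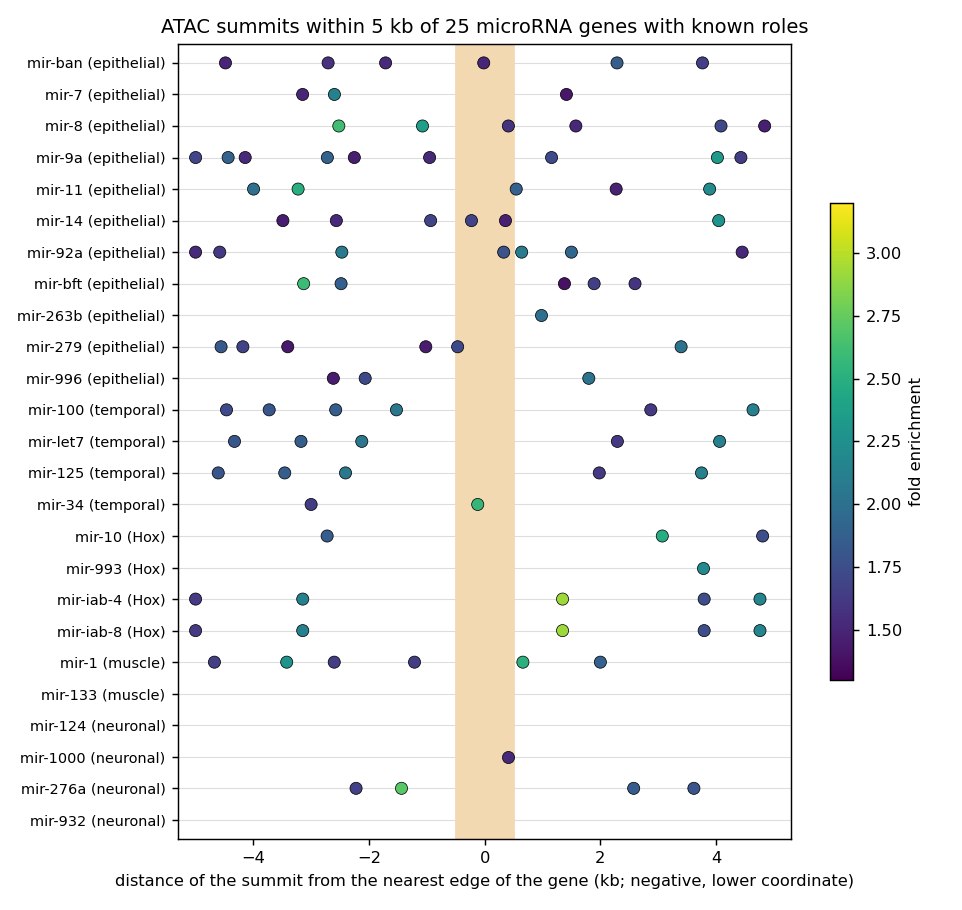
ATAC summits (points, coloured by fold enrichment) within 5 kb of 25 microRNA genes with known roles, one row per gene; the x axis is the distance in kb from the nearest edge of the hairpin and the shaded band marks 500 bp. Rows that hold 5 or more summits include those of mir-ban, mir-9a, the let-7 group, mir-iab-4 and the muscle gene mir-1, and those of mir-124, mir-133 and mir-932 hold 0.

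The pileup recovered at each summit is the number of overlapping reads there, and the local background is the number the caller set it against. At the peaks nearest to the 11 genes the median pileup was 169 reads, against 149 over all peaks, and the median background was 107 reads against 68.1. The pileups at mir-263b (114 reads), mir-7 (130) and mir-bft (148) were below the median of all peaks. For 10 of the 11 genes the background was above 82.1 reads, a level exceeded by 25% of all peaks, the exception being mir-263b, and over all 260 microRNA genes this held for 54, or 20.8%. The peak at mir-ban had 179 overlapping reads (95% Poisson interval 154 to 207) over a background of 119, and that at mir-279 had 220 (192 to 251) over 127. These genes also had many neighbouring summits, with a median of 6 within 5 kb against 3 over all microRNA genes. Their part in the background was not tested.

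**Figure D4:**
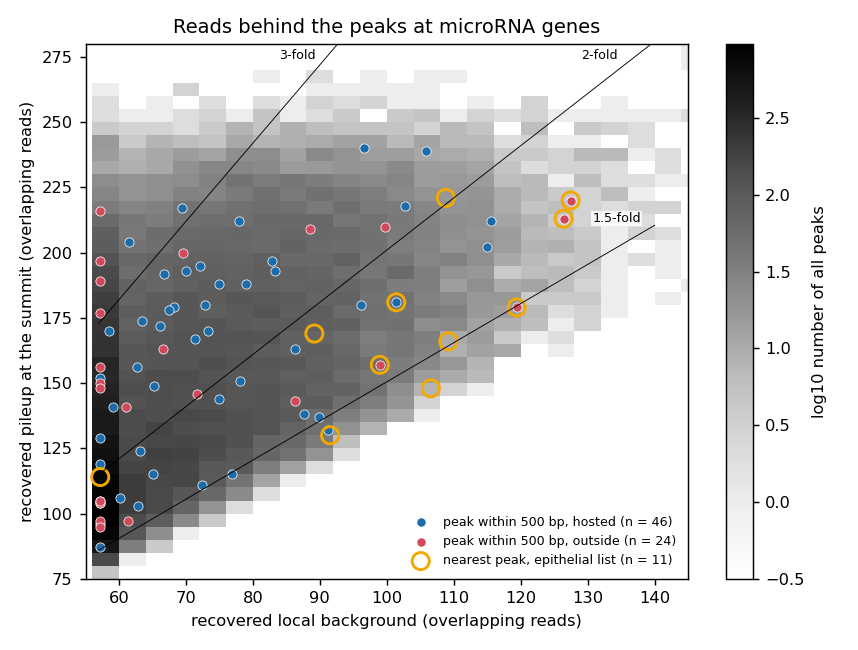
Overlapping reads at the summit (y axis) against the recovered local background (x axis, reads) for the peaks within 500 bp of hosted and outside microRNA genes, over the density of all peaks in grey; lines mark ratios of 1.5, 2 and 3. Rings mark the nearest peaks of the 11 genes of the epithelial list, which with the exception of mir-263b lie at backgrounds above 82.1 reads.

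Of the temporal microRNAs, the let-7 complex encodes mir-100, mir-let7 and mir-125 in 1 lncRNA gene that is activated at metamorphosis. That gene spanned 17416 bp with 12 summits in its span, and a 2.39-fold peak had its summit within 500 bp of the lower-coordinate end. None of its 3 hairpins had a summit within 500 bp: the nearest were 1526 bp from mir-100, 2126 bp from mir-let7 and 1981 bp from mir-125. The summit nearest to mir-100 and mir-let7 was shared, with 230 overlapping reads at 2.05-fold. mir-34, linked to ageing in the fly brain, had a summit at 121 bp (2.56-fold), shared as the nearest with mir-277 at 694 bp.

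The 4 Hox complex genes had no summit within 500 bp, while 28.1% of all microRNA genes had one. mir-iab-4 and mir-iab-8, the hairpin read from both strands of the bithorax complex that represses Ubx and abd-A, have identical coordinates (chr3R:16856275-16856342), and the nearest summit was at 1346 bp with 2.92-fold. The nearest summits were 2725 bp from mir-10 (1.86-fold) and 3772 bp from mir-993 (2.199-fold), both in the Antennapedia complex. These 3 distinct peaks had a background of 57.2 reads, the lowest in the list of peaks, as had the nearest peaks of 120 of all 260 microRNA genes (46.2%).

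MicroRNAs of other tissues were mixed. The muscle gene mir-1 had a summit 660 bp away of 2.51-fold and 6 summits within 5 kb, whereas mir-133, a muscle microRNA in vertebrates, had none within 5 kb and its nearest at 7829 bp. In the neuronal list, mir-124, abundant in the nervous system, had its nearest summit at 6682 bp (1.67-fold) and mir-932 at 5687 bp (2.75-fold). A weak one of 1.51-fold with 87 overlapping reads lay 395 bp from mir-1000. mir-276a, which acts in memory, had one of 2.70-fold with 224 reads at 1439 bp, in a lncRNA gene of 43950 bp with 25 summits.

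The K-box family, whose members share a seed and repress cell death and Notch target genes, is spread over several sites. Of its 13 genes 2 had a summit within 500 bp, against 28.1% of all microRNA genes. They were mir-2c at 132 bp and mir-13a at 361 bp, which share 1 peak of 1.65-fold. Next to them, mir-13b-1 was 502 bp from the same summit. The hosted members mir-2b-1 inside the kinase gene Btk (513 bp, 1.62-fold), mir-308 inside RpS23 (1132 bp, 1.71-fold) and mir-13b-2 inside CCT2 (1439 bp, 2.16-fold) had theirs farther away. The hairpins mir-2a-2, mir-2a-1 and mir-2b-2 inside spi lay 876, 1281 and 989 bp from a summit, with 7 summits within 5 kb of each. mir-6-1, mir-6-2 and mir-6-3 lay between 2421 and 2710 bp from one. Genes thought to carry the same seed thus differed in how close open chromatin lay, from 132 to 2710 bp.

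In 5 of the 6 largest clusters no summit lay between the hairpins, but most of these spans are short. These 5 spans ran from 911 to 1654 bp, apart from the 10780 bp of mir-972 to mir-979. For comparison, a stretch of 92 bp with 500 bp on either side holds a summit at 24.2% of positions. With 5 kb on either side it does at 71.6%. When microRNA genes within 10 kb of each other were joined, 89 genes fell into 27 clusters of 2 or more, and 6 clusters held 4 or more. The mir-309 cluster, 8 hairpins active in the early embryo (chr2R:19660716-19661774), lay 1731 to 2710 bp from its nearest summit, and its host lncRNA had no summit in its span or at its ends. The cluster of mir-972 to mir-979 on X, 12 hairpins over 10780 bp, lay 3871 to 8699 bp away. The mir-310 cluster, 7 hairpins, lay 1034 to 2246 bp away, and the summit nearest to mir-959 to mir-964 lay 378 bp beyond mir-964. The exception was the cluster of mir-982 to mir-984, where the summit of 3.06-fold next to mir-303 lay inside the span. In the list of 26 testis-enriched genes, drawn from 4 of these clusters, 2 had a summit within 500 bp (7.69%), mir-303 and mir-964. Over all microRNA genes the share was 28.1%. Neighbours in a cluster share nearest peaks, so the 26 genes are not independent cases.

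**Figure D5:**
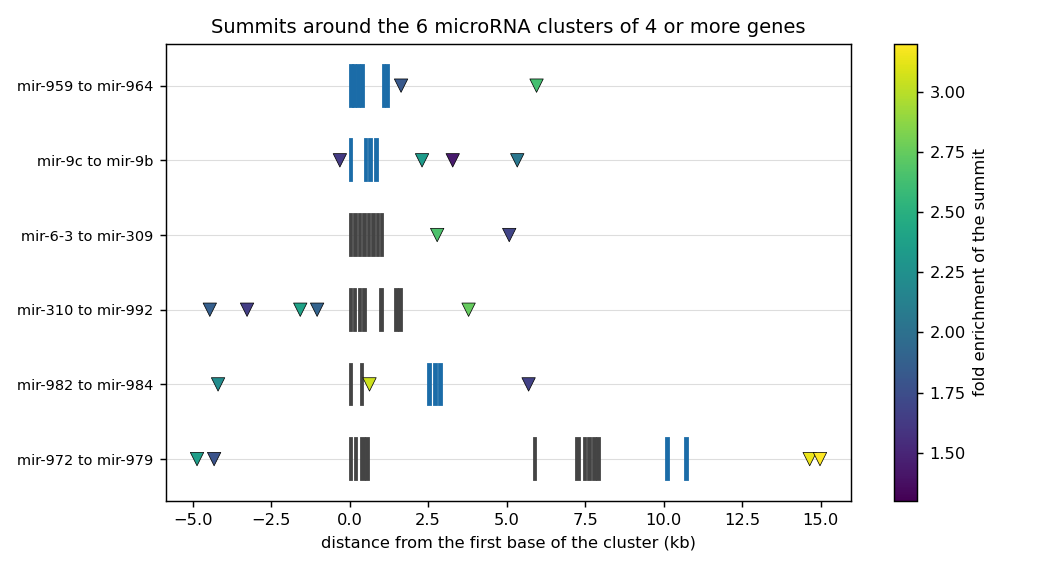
Hairpins (bars; blue where hosted, dark where outside) and ATAC summits (triangles, coloured by fold enrichment) in the 6 clusters of 4 or more microRNA genes; the x axis is the distance in kb from the first base of the cluster. Only the cluster of mir-982 to mir-984 has a summit between its first and last hairpin.

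The arms differed, in part with these clusters. A summit lay within 500 bp of 10 of 58 genes on X (17.2%), 14 of 56 on 2L, 15 of 55 on 2R (27.3%), 18 of 58 on 3R (31.0%) and 14 of 31 on 3L (45.2%), and of both genes on chromosome 4. The 95% exact intervals were 8.59% to 29.4% on X and 27.3% to 64.0% on 3L, and they overlap. The share of positions was 21.5% on X, 26.2% on 2L, 23.9% on 2R, 24.2% on 3R, 25.2% on 3L and 20.1% on chromosome 4. On X 17 of the 58 genes belonged to clusters of 4 or more, and on 3L none did. Counted as loci of 1 class within 10 kb, the shares came from 10 of 41 loci on X and 13 of 30 on 3L.

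The genes were also grouped by registry number, a grouping chosen after the values were seen. MicroRNAs are numbered broadly in the order of their registration, so the number is only a rough guide to when a gene was found. Of 79 genes numbered up to 318, 21 had a summit within 500 bp (26.6%, 95% exact interval 17.3% to 37.7%). Of 68 numbered 375 to 1017, 14 had one (20.6%, 11.7% to 32.1%), and of 108 numbered 2279 or higher, 37 had one (34.3%, 25.4% to 44.0%). The intervals overlap, and each holds the 28.1% of all microRNA genes. In the last group 88 were hosted, 30 of them with a close summit (34.1%), against 7 of 20 outside (35.0%). The 5 named without a number are not in these counts.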

How the data were processed

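Peaks of the 3 wild-type ATAC-seq replicates came as 1 merged list. The submitters' processing notes name BWA, SAMtools, Picard and MACS2 and the dm6 build, and the sources used here give no version, setting or way of merging. Fold enrichment in the list, as the authors gave it, is the ratio of reads at the summit to those of the local background, on a linear scale. Each deposited peak also has a −log10 p and a −log10 q at that summit, and a deposited score that was not used. Depth per replicate is unknown.

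Summits were matched to the RefSeq gene table of the same Release 6 assembly with Python 3.11.15, pandas 2.3.3 and scipy 1.17.1, with 1-based coordinates. Reads at the summit were recovered as the whole number that gives both the deposited ratio, with 1 added to each side, and the deposited −log10 p under a Poisson law (tolerance 0.002). All 34718 peaks gave one, between 79 and 277 overlapping reads, and the procedure was checked on simulated data. Precision is that of counting only.

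Members, lists and groupings were chosen with earlier results of these data known. mir-ban, mir-let7 and mir-bft were matched through synonyms. Named genes are the members of the role lists, the 6 hosted and 6 outside genes of highest fold enrichment, the 3 farthest of each class, and clusters of 4 or more. Hosts named at their ends, genes that hold a summit and tissue markers were chosen after their values were seen. Seed families were not derived, since mature sequences were not used here. No tests were made. Alternatives were the window, the 17359 peaks of highest −log10 q, and any part of a peak within 500 bp in place of its summit. Others were 1 locus per cluster, other host definitions and distance from coding ends. The measures at host ends were added after seeing the data.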

Additional observations from a re-analysis of the deposited data

How the results depend on the processing

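The share of microRNA genes with a close summit followed the window and the peak set. It was 16.2% within 250 bp (14.5% hosted) and 42.7% within 1000 bp (45.2% hosted, 38.3% outside), against 14.7% and 37.8% of positions. With the 17359 peaks of highest −log10 q it was 15.8% (16.3% hosted, 14.9% outside). When any part of a peak within 500 bp of the hairpin was counted, in place of its summit, it was 37.3% (38.0% hosted). With 1 locus per cluster, counted where any member had a close summit, it was 34.0% (39.7% outside). There the outside class stood above the hosted class at 31.7%. Without genes within 1000 bp of a coding end it was 22.6% (18.5% outside). With the stricter peaks the median distance was 2562 bp (2580 bp hosted, 2492 bp outside), and list counts were 0 for the epithelial, K-box and neuronal lists and 1 for the testis-enriched list. Within 1000 bp they were 8 epithelial, 7 K-box, 1 muscle and 4 testis-enriched genes. Without end peaks of the host, 24.4% of genes in hosts with an end summit had a close summit. Of 64 alternative values, 38 kept the value reported and 26 moved, where kept means a share within its 95% exact interval, or a count, median or host-end share within 1.5 times. Some of those kept could not move. Another host definition leaves the share over all microRNA genes as it is. Hosts without an end summit have no end peak to leave out. All alternatives use the same merged list, and the spread between replicates could not be measured. No paired analysis was possible because the merged list has no replicate values.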
